A study of Mus musculus with 4 samples.

Results

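The genes described here belong to the Atf4 and Ddit3 branch of the integrated stress response. They were taken by symbol from the deposited score tables, which list 23420 genes, and all 10 were found: the transcription factors Atf4, Atf5, Ddit3, Cebpb and Cebpg, the phosphatase subunit Ppp1r15a, and the target genes Trib3, Chac1, Asns and Sesn2. Cochleae of Atoh1-GFP mice on a CD1 background, a line whose GFP reporter marks hair cells, were dissected at postnatal day 1 and cultured overnight at reduced oxygen in medium with penicillin. Some were then given 0.5 mM gentamicin, an aminoglycoside antibiotic that damages hair cells, for 3 h, and the others received no gentamicin. GFP positive cells (hair cells) and GFP negative cells (non-hair cells, a mixture of every other cell type in the dissected tissue) were sorted by FACS, giving control and gentamicin groups in each population with 3 replicates per group. Each value is a normalized read score, that is, reads on a gene scaled between replicates with 1 added, and 22398633–28149165 reads fell on genes per replicate. A gene met the criteria for a rise or a fall with gentamicin when its unadjusted p was under 0.01 and its fold change, up or down, over 1.2. Tests were made with limma on log2 scores over the 16077 genes with at least 100 reads, and all 10 genes passed that minimum.

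The integrated stress response starts when one of 4 kinases, each sensing a different stress, phosphorylates the translation initiation factor eIF2. Protein synthesis then slows, while the mRNA of Atf4, which carries upstream open reading frames, is translated better. Atf4 protein, often paired with a C/EBP factor, raises the mRNA of genes for amino acid supply, of Ddit3 (also called CHOP, a factor linked to cell death) and of Ppp1r15a (also called GADD34), which brings a phosphatase to eIF2 and ends the response. Only mRNA was measured here, so neither eIF2 phosphorylation nor the amount of Atf4 protein can be read from these values. Aminoglycosides are known to bind ribosomal RNA and enter hair cells through the transduction channel.

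The DNA just before the transcription start is shown for 4 of the genes. The first pair below, Ddit3 and Ppp1r15a, had higher mRNA in treated hair cells, and Ppp1r15a holds a cyclic AMP response element. The second pair, Chac1 and Asns, hold the core of a C/EBP-ATF response element and did not meet the criteria there. The sequences are RefSeq promoters of the GRCm38.p6 assembly, from the 250 bases before the RefSeq start, which for Ddit3, Chac1 and Asns lies a little inside the GENCODE gene, and are read in the direction of transcription. Capitals mark a motif match. Ddit3 lies at chr10:127290543-127290792 on the plus strand, Ppp1r15a at chr7:45526269-45526518 on the minus strand, Chac1 at chr2:119350992-119351241 on the plus strand and Asns at chr6:7693210-7693459 on the minus strand.
Ddit3: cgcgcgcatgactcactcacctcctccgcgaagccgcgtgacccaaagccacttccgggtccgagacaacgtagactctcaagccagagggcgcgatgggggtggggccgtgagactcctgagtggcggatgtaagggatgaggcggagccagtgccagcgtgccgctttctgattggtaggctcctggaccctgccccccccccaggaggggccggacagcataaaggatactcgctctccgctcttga
Ppp1r15a: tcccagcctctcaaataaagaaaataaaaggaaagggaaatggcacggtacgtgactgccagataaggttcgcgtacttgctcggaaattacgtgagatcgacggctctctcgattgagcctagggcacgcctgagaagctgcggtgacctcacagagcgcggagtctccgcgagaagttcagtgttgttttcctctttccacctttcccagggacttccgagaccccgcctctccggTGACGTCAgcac
Chac1: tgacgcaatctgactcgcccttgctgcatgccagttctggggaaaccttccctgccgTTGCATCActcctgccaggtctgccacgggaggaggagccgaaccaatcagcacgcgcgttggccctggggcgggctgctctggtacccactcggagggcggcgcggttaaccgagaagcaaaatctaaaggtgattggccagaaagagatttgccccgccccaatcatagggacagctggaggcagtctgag
Asns: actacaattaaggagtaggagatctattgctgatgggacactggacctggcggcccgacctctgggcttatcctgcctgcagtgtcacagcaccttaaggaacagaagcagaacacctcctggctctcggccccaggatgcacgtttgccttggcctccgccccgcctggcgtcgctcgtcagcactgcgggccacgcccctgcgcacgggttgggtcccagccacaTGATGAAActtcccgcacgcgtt

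The core of the C/EBP-ATF response element, TGATGNAA, was searched on both strands from 250 bases before to 50 bases after the start. It was found in 3 of the 10 genes, Asns, Chac1 and Trib3, and in 3.97% of all 32851 promoters of that length. In Asns the match TGATGAAA begins 23 bases before the start, and in Chac1 the opposite-strand match TTGCATCA begins 193 bases before it. In Trib3 the opposite-strand match TTACATCA begins at base 15 of the transcript. The cyclic AMP response element TGACGTCA was found in Ppp1r15a, where it begins 12 bases before the start, and in 1.79% of all promoters. The amino acid response element ATTGCATCA (0.192% of all promoters), the C/EBP palindrome TTGCGCAA (0.183%) and the endoplasmic reticulum stress element CCAAT-N9-CCACG (0.119%) were found in 0 of the 10. No motif letters of these 5 kinds stand in the Ddit3, Atf4, Atf5, Sesn2, Cebpb or Cebpg windows. A match is a description of letters and not a measured binding site. Sites outside this window were not searched, so a gene without a match here may hold one elsewhere.

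Hair cell and mesenchyme markers set the sorted populations apart, but supporting cell, Schwann cell and neuron markers did so less or not at all. The summed score of 6 hair cell markers (Atoh1, Pou4f3, Myo7a, Myo6, Gfi1 and Otof) was 10552–10984 in control hair cells and 8843–9906 with gentamicin, against 195–294 in the 6 non-hair cell replicates. Mesenchyme markers summed to 4997–9247 in non-hair cells, to 187–470 in control hair cells and to 97.2–155 in treated hair cells. Supporting cell markers were not lower in hair cells: they summed to 1211–1407 in control hair cells, 538–1024 in treated hair cells, 589–1040 in control non-hair cells and 362–825 in treated non-hair cells. The summed mesenchyme, Schwann cell, endothelial and macrophage markers of the hair cell replicates came to 7.59, 12.3 and 7.66% of their mean in control non-hair cells without the drug, and to 5.27, 4.93 and 6.24% with it. Schwann cell markers held much of these sums, 324–369 in control and 206–273 in treated hair cells. One of them, Cnp, was higher in control hair cells than in control non-hair cells (log2 difference 1.54), while the other 4 were lower. How much of this share is RNA of hair cells themselves was not tested. Each marker list had reads for all its genes in every group. In bulk samples such as these, fewer cells of a type and less RNA per cell cannot be told apart.

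Without the drug, most of the stress response genes were lower in hair cells than in non-hair cells. Of the 10, 7 were lower and 0 higher at an adjusted p under 0.05, beside 42.2% of all tested genes lower and 31.9% higher. The counts were 7 and 0 also at an unadjusted limma p under 0.05, with trend or with voom weights. Cebpb, a C/EBP factor of inflammation and differentiation, differed by the widest margin. Its scores were 27.0, 31.8 and 24.6 in control hair cells and 264, 228 and 194 in control non-hair cells, 8.20-fold lower (log2 difference −3.04 ± 0.14, SE; limma adjusted p = 4.17e-09). Atf5, a factor related to Atf4 that responds to mitochondrial stress, was 3.03-fold lower (49.2 ± 3.31 against 151 ± 29.3, SD, n = 3; limma adjusted p = 1.53e-06). Trib3, a pseudokinase that restrains Akt, was 2.77-fold lower and Chac1, which degrades glutathione, 2.32-fold lower. Sesn2, Atf4 and Cebpg were lower by smaller factors of 1.56, 1.39 and 1.36. For each of these 7 genes all 3 hair cell replicates lay under all 3 non-hair cell replicates. How many of all tested genes separated in this way was not counted. Ddit3 (log2 difference −0.13, 95% interval −0.43 to 0.16), Asns (0.33, −0.32 to 0.99) and Ppp1r15a (−0.34, −0.82 to 0.14) did not pass the test, and their ranges overlapped. The order of these 3 estimates is within their intervals.

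Levels of different genes can be compared only per length of exon, and the scores less the added 1 were therefore divided by the exon length of each gene in kb. In control hair cells Atf4 had the highest mean level of the 10, 81.5 score units per kb. Ppp1r15a followed at 33.4, Asns at 30.6 and Atf5 at 24.2. Cebpb (17.8) and Ddit3 (14.9) came next, then Cebpg (8.50), Sesn2 (5.80), Trib3 (3.08) and Chac1 (2.09). In control non-hair cells Cebpb headed the order at 151 score units per kb, ahead of Atf4 at 113 and Atf5 at 75.2. In treated hair cells Atf4 reached 285 and Ddit3 41.9 score units per kb, which placed Ddit3 next to Ppp1r15a (58.6) and behind Atf4. Trib3 and Chac1 stood on few reads in hair cells, 46–215 and 66–95 per replicate.

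**Figure D1:**
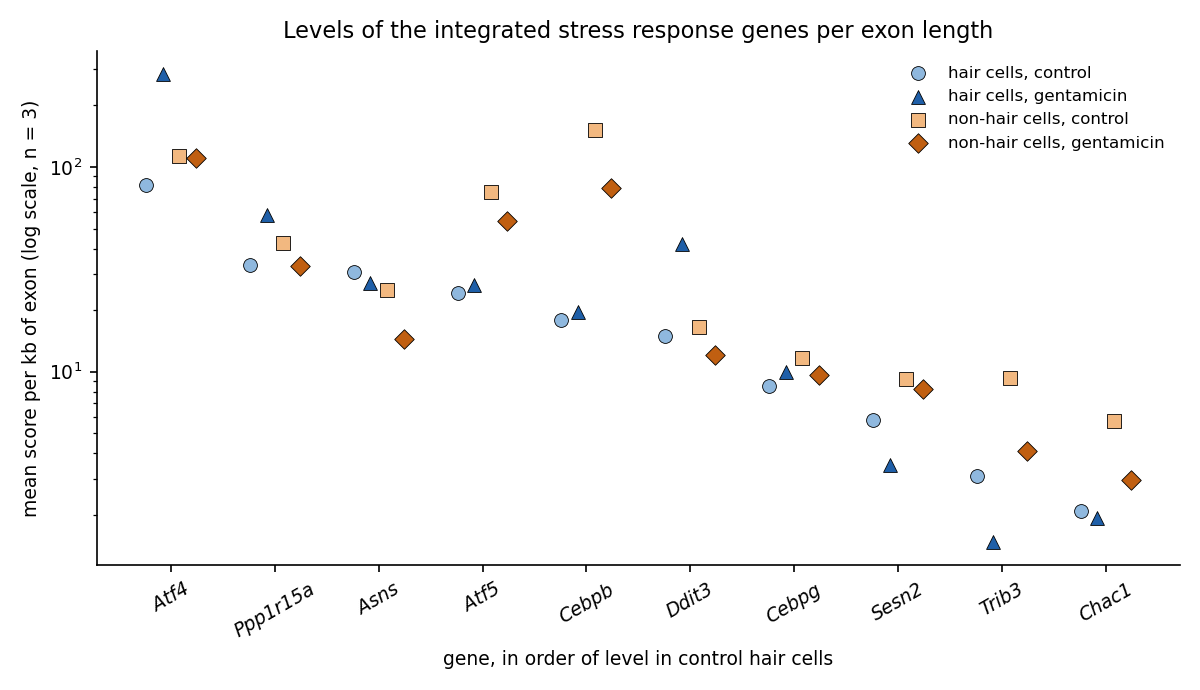
Mean score per kb of exon (vertical log axis, n = 3 replicates) of the 10 genes, in order of their level in control hair cells, with circles and triangles for control and treated hair cells and squares and diamonds for control and treated non-hair cells. The triangles of Atf4 (285), Ppp1r15a (58.6) and Ddit3 (41.9) stand above the other 3 groups of the same gene. Cebpb, Atf5, Trib3, Chac1 and Sesn2 are higher in both non-hair cell groups than in both hair cell groups.

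In hair cells, 3 h of gentamicin raised the factors that name the branch, Atf4 and Ddit3, and the phosphatase subunit, and lowered Sesn2. Atf4 mRNA rose 3.47-fold, Ddit3 2.74-fold and Ppp1r15a 1.73-fold, and Sesn2 fell 1.62-fold. Of the 10 genes, 3 rose and 1 fell by the criteria, beside 12.7% of all tested genes that rose and 14.8% that fell. The balance over all genes turned with the scaling: with scores scaled to equal total reads 17.3% rose and 9.9% fell, and of the 10 genes 4 rose and 1 fell. The median log2 difference was 0.14 over the 10 genes and −0.09 over all tested genes.

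Atf4, at chr15:80255184-80257541 on the plus strand (GRCm38, the coordinates of mm10), encodes the factor at the centre of the response. Its scores were 186, 211 and 183 in control hair cells and 651, 757 and 608 with gentamicin. The lowest treated replicate was well above the highest control. The log2 difference was 1.80 ± 0.11 (SE; 95% interval 1.55 to 2.04; limma adjusted p = 8.62e-06). Ddit3, at chr10:127290774-127296288 on the plus strand, encodes CHOP, which is induced by Atf4 and promotes cell death when stress persists. Its scores were 26.2, 29.4 and 24.0 in control hair cells and 68.3, 82.8 and 67.3 with gentamicin. Again the groups stood apart, by a log2 difference of 1.46 ± 0.14 (SE; 95% interval 1.16 to 1.75; limma adjusted p = 5.58e-05). Its exons share 68 bases, 3.97% of their length, with the opposite-strand gene Mars. Reads of the pair cannot be separated without strand, but Mars had scores of 65.0–67.7 in treated and 69.1–75.0 in control hair cells, so its level was not higher with the drug. A second annotated gene of the symbol Ddit3 overlaps it over 105 bases.

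Ppp1r15a, at chr7:45522916-45526268 on the minus strand, encodes GADD34, the stress-induced subunit that directs protein phosphatase 1 to eIF2. Control hair cells had scores of 89.2, 112 and 95.7, and treated hair cells 163, 213 and 143. The groups did not overlap, and the log2 difference was 0.79 ± 0.22 (SE; limma adjusted p = 0.0181). The call was lost without control replicate 1, control replicate 3 or treated replicate 2, with log2 differences of 0.72, 0.77 and 0.63 and limma adjusted p-values of 0.0620, 0.0528 and 0.0774. Ppp1r15b, the constitutive subunit with the same partner, had means of 125 ± 14.1 in treated and 113 ± 6.43 in control hair cells (SD, n = 3) and did not meet the criteria.

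The other transcription factors had smaller differences in hair cells. Cebpg, a C/EBP protein that pairs with Atf4, had scores of 46.3, 47.8 and 52.3 in control hair cells and 57.4, 59.8 and 53.2 with gentamicin. Its lowest treated replicate was just above its highest control. The log2 difference of 0.22 ± 0.07 (SE; limma adjusted p = 0.0403) corresponds to a fold change of 1.16, which is under the threshold. The criteria were met in 4 alternatives: scaling to equal total reads (0.32), subtraction of other cells' RNA (0.28), and the fits without control replicate 3 (0.27) or treated replicate 3 (0.27). Atf5 scored 48.2, 52.9 and 46.4 in control hair cells and 55.9, 52.0 and 53.7 with gentamicin, and these ranges overlapped (log2 difference 0.13, 95% interval −0.19 to 0.46). Cebpb shares 20.7% of its exon length with the opposite-strand gene Tmem189, which scored 32.3–35.6 in control hair cells and 21.2–32.9 with gentamicin. Reads of the pair cannot be separated without strand, which holds for the 8.20-fold difference between the controls too. Cebpb scored 27.0, 31.8 and 24.6 in control hair cells and 29.7, 33.8 and 28.2 with gentamicin, with a log2 difference of 0.14 (95% interval −0.17 to 0.44). This value depended on how RNA of other cells in the hair cell samples was treated. Cebpb was 8.20-fold higher in non-hair cells, and the marker share of other cells was lower in treated hair cells. The subtraction took that share of the mean in non-hair cells of the same treatment, which was 229 in controls and 120 with gentamicin. More was therefore taken from control than from treated hair cells, and the log2 difference of Cebpb became 1.86 (limma adjusted p = 0.000565). This value rests on the subtracted amounts and does not show a rise of Cebpb in hair cells. The same subtraction left Atf4 at 1.90, Ddit3 at 1.53, Ppp1r15a at 0.86 and Sesn2 at −0.73.

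None of the 4 target genes met the criteria as a rise in hair cells. Asns, asparagine synthetase and a classic Atf4 target, scored 86.4, 88.9 and 78.7 in control hair cells and 78.2, 86.3 and 61.1 with gentamicin. Chac1, whose promoter also holds the response element core shown above, scored 3.95, 4.68 and 4.64 in control hair cells and 3.72, 4.98 and 3.78 with gentamicin. Both genes had overlapping ranges, with log2 differences of −0.18 for Asns (95% interval −0.84 to 0.47) and −0.10 for Chac1 (−0.59 to 0.40). The upper ends of these intervals lie under the lower ends for Atf4 and Ddit3. Trib3 scored 6.52, 10.2 and 5.93 in control hair cells and 5.54, 2.92 and 3.92 with gentamicin. All its treated replicates were under all its controls, but the log2 difference of −0.88 ± 0.38 (SE; limma adjusted p = 0.0971) did not meet the criteria. Sesn2, a stress-induced inhibitor of mTORC1 signalling, scored 20.5, 23.9 and 19.1 in control hair cells and 15.9, 10.1 and 13.7 with gentamicin. These groups did not overlap, and Sesn2 fell by 0.70 on the log2 scale (SE 0.16; limma adjusted p = 0.00764). The added 1 in each score understates fold changes of genes as low as Chac1 and Trib3; with an offset of 0.1 in its place their log2 differences were −0.13 and −1.07.

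**Figure D2:**
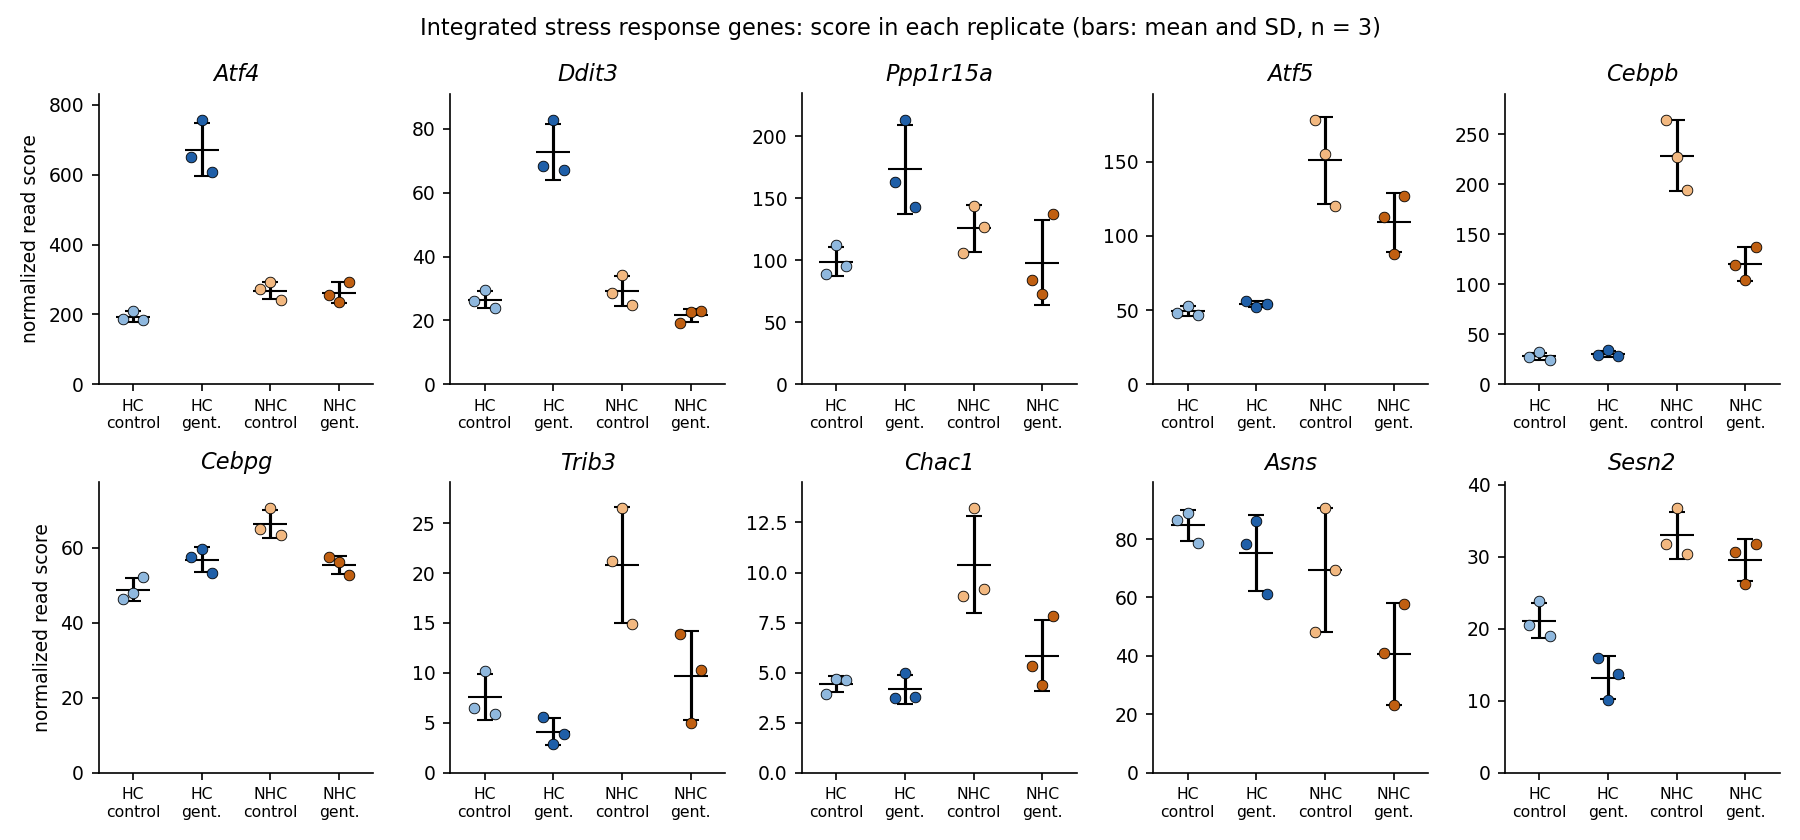
Normalized read score (vertical axes, linear from 0, a different scale in each panel) of the 10 genes in every replicate of hair cells (HC) and non-hair cells (NHC), control and gentamicin, with points for replicates and bars for the mean and SD (n = 3). In hair cells the treated points of Atf4, Ddit3, Ppp1r15a and Cebpg lie above all their controls and those of Sesn2 and Trib3 below. In non-hair cells the treated points of Ddit3, Trib3, Chac1, Cebpb and Cebpg lie below all their controls.

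Non-hair cells showed a different pattern, in which 5 genes fell and 0 rose by the criteria. At an unadjusted limma p under 0.05 there were 7 falls and 0 rises, with trend or with voom weights, a limit at which all genes were not counted. By the criteria, 2.26% of all tested genes fell and 3.18% rose. Scaled to equal total reads these shares were 1.75% and 3.94%, and 2 of the 10 genes fell. The median log2 difference was −0.45 over the 10 genes and −0.01 over all tested genes. Cebpb fell by 0.93 on the log2 scale (SE 0.14; limma adjusted p = 0.0301), from scores of 264, 228 and 194 to 119, 104 and 138, and it was the only gene of the 10 with an adjusted p under 0.05. Its exons overlap those of the opposite-strand gene Tmem189 over 20.7% of their length, and Tmem189 scored 66.2–87.2 in control non-hair cells and 68.9–86.1 with gentamicin. Its adjusted p was over 0.05 in several alternatives, among them 0.149 without control replicate 2 and 0.391 with the 2 non-hair cell groups fitted alone.

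Ddit3 went the other way from hair cells, with scores of 28.6, 34.3 and 24.9 in control non-hair cells and 19.2, 22.6 and 23.0 with gentamicin. It fell by 0.43 on the log2 scale (SE 0.14; limma adjusted p = 0.155), with all treated replicates under all controls. Trib3 scored 21.2, 26.5 and 14.9 in control non-hair cells and 13.9, 4.98 and 10.3 with gentamicin, and fell by 1.18 (SE 0.38; limma adjusted p = 0.163). Chac1 scored 8.81, 13.2 and 9.19 in control non-hair cells and 5.33, 4.39 and 7.82 with gentamicin, and fell by 0.85 (SE 0.23; limma adjusted p = 0.110). Neither gene's groups overlapped, although the highest treated replicate of each was close to its lowest control. Atf5 scored 178, 155 and 120 in control non-hair cells and 113, 87.6 and 127 with gentamicin, with overlapping ranges, and fell by 0.47 (SE 0.15; limma adjusted p = 0.162).

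Atf4 itself scored 272, 292 and 242 in control non-hair cells and 257, 236 and 294 with gentamicin. Its ranges overlapped, and the log2 difference was −0.04 (95% interval −0.28 to 0.21), an interval far below the rise in hair cells. Asns had scores of 48.0, 90.5 and 69.4 in control non-hair cells and 41.1, 23.0 and 57.8 with gentamicin (log2 difference −0.82, 95% interval −1.48 to −0.16; limma adjusted p = 0.205). Ppp1r15a scored 106, 144 and 127 in control non-hair cells and 84.4, 72.5 and 137 with gentamicin (log2 difference −0.40, 95% interval −0.89 to 0.08). Sesn2 had a log2 difference of −0.16 (95% interval −0.51 to 0.20). Cebpg scored 65.0, 70.5 and 63.4 in control non-hair cells and 57.5, 56.1 and 52.8 with gentamicin, and its difference of −0.26 fell short of the fold change threshold at 1.19-fold.

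The non-hair cell calls rest on a population that varied between replicates. Treated replicate 2 was the lowest treated replicate for 8 of the 10 genes, all but Ddit3 and Cebpg. In that replicate mesenchyme markers summed to 9247, the highest of the 6 non-hair cell replicates, and supporting cell and neuron markers to 362 and 340, the lowest. The part of this mixture in the result was not tested. Without treated replicate 2, or without control replicate 2, only 1 of the 5 falls met the criteria, that of Cebpb.

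**Figure D3:**
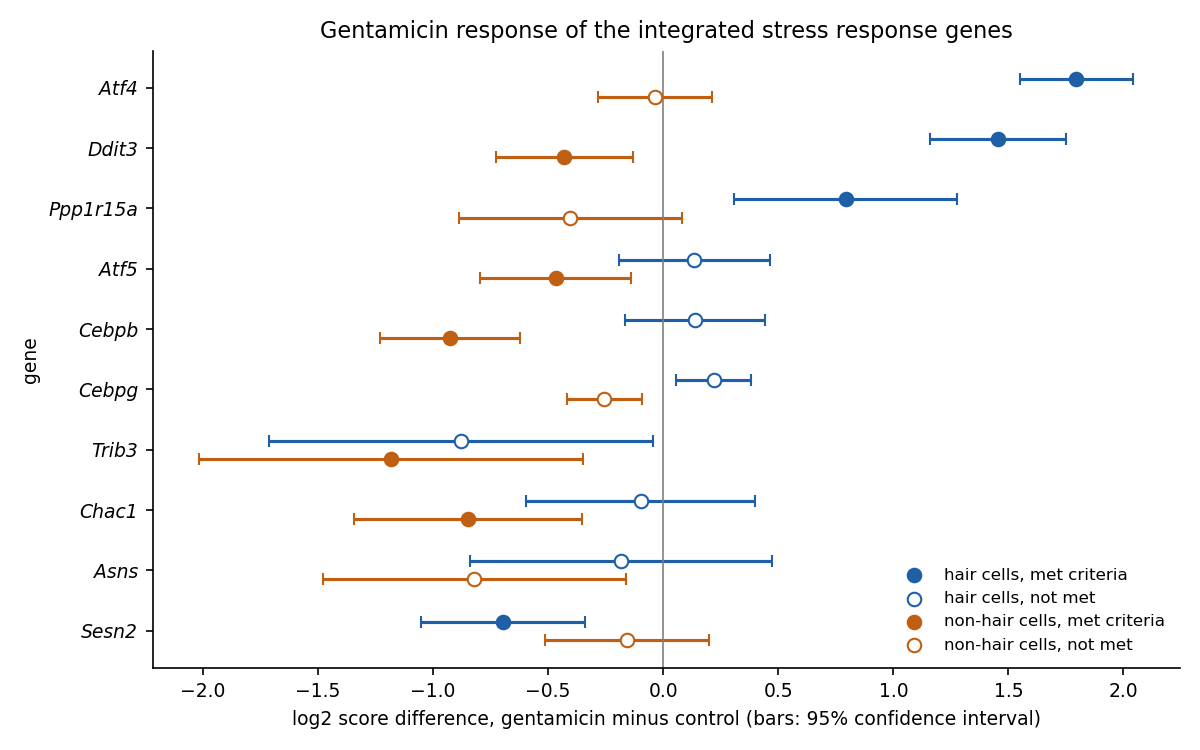
Log2 score difference between gentamicin and control (horizontal axis, with 95% confidence intervals from limma) of the 10 genes in hair cells (blue) and non-hair cells (orange), with filled points for genes that met the criteria. The blue intervals of Atf4, Ddit3, Ppp1r15a and Cebpg lie right of 0 and those of Sesn2 and Trib3 left of it, and the orange intervals of Cebpb, Trib3, Chac1, Asns, Atf5, Ddit3 and Cebpg lie left.

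The response itself differed between the populations for 5 of the 10 genes at an adjusted p under 0.05, each with the more positive response in hair cells. Over all tested genes, 6.85% had a more positive and 6.57% a more negative response in hair cells, with a median difference of −0.07, against 0.69 for the 10 genes. With equal total reads the shares were 9.33% and 4.45%, and the 10 genes still gave 5 and 0. Ddit3 and Atf4 had the widest gaps, with differences of 1.88 ± 0.19 and 1.83 ± 0.16 on the log2 scale (SE; limma adjusted p = 0.000652 and 0.000338). Ppp1r15a differed by 1.197 ± 0.31 (SE; limma adjusted p = 0.0292), Cebpb by 1.06 ± 0.20 (0.00735) and Cebpg by 0.48 ± 0.10 (0.0149). For Atf4 the gap set 1.80 in hair cells against −0.04 in non-hair cells, and for Cebpb it set 0.14 against −0.93. All 5 genes had estimates of opposite sign in the 2 populations, but not every sign is settled. The 95% intervals of Atf4 and Ppp1r15a in non-hair cells and of Cebpb in hair cells included 0. Atf5 (0.60, limma adjusted p = 0.0820), Chac1 (0.75, 0.140), Asns (0.64, 0.338), Trib3 (0.30, 0.743) and Sesn2 (−0.54, 0.140) did not pass the test of the difference. The fall of Sesn2 in hair cells is therefore not shown to be particular to them. The call of Ppp1r15a was lost when any 1 of 8 of the 12 replicates was left out, with differences of 1.01–1.23 among those fits and adjusted p-values of 0.0504–0.0716.

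The genes around the branch were described with 86 others in 7 lists, all of which were tested. In hair cells 7 of them rose and 13 fell, with a median log2 difference of −0.11. These are 8.14% and 15.1% of the 86, beside 12.7% and 14.8% of all tested genes, and with equal total reads 8 rose and 7 fell, so the excess of falls was lost. In non-hair cells 6 rose and 2 fell (6.98% and 2.33%, beside 3.18% and 2.26% of all tested genes), with a median of −0.05. The difference between the populations passed the test for 4 of the 86 (4.65%, beside 13.4% of all tested genes). Eif2b2 had the more positive response in hair cells (0.42; limma adjusted p = 0.0175), and Mbtps1 (−0.61), Tnfrsf10b (−0.55) and Trib2 (−0.40) had the more negative one (limma adjusted p = 0.0347, 0.0309 and 0.0400). With equal total reads 3 were more positive and 1 more negative.

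Upstream of Atf4, 1 of 6 genes for eIF2 kinases and their regulators rose in hair cells (16.7%, beside 12.7% of all tested genes). Eif2ak1, the haem-regulated kinase HRI, had means of 35.3 ± 1.08 in treated and 28.8 ± 0.90 in control hair cells (SD, n = 3; log2 difference 0.30, limma adjusted p = 0.0232). It met the criteria in non-hair cells too, with 0.29. Eif2ak2 (PKR, sensing double-stranded RNA), Eif2ak3 (PERK, sensing unfolded proteins in the endoplasmic reticulum) and Eif2ak4 (GCN2, sensing uncharged tRNA) had log2 differences of 0.05, −0.03 and −0.15 in hair cells and did not meet the criteria. These are levels of mRNA, and kinase activity was not measured. Of 13 genes for eIF2, its exchange factor eIF2B and its phosphatase, 5 rose and 0 fell in hair cells (6 and 1 at an unadjusted limma p under 0.05, with trend or with voom weights). The rises were 38.5% of the list, beside 12.7% of all tested genes. With equal total reads 6 rose, 46.2% beside 17.3%. Eif2b2, the beta subunit of eIF2B, rose from 62.0 ± 2.91 to 97.5 ± 5.83 (SD, n = 3; log2 difference 0.65, limma adjusted p = 9.96e-05). Eif2s1, the phosphorylated subunit of eIF2, rose by 0.41 and Eif2b3 by 0.35 on the log2 scale. In non-hair cells Eif2b3 met the criteria too (0.39), while Eif2b2 (0.23) and Eif2s1 (0.21) did not.

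Downstream of Atf4 and Ddit3, few of the listed targets changed in hair cells. Of 46 in 3 lists 1 rose (2.17%, beside 12.7% of all tested genes) and 6 fell (13.0%, beside 14.8%), so their share of falls was near that of all genes. Of 18 genes for amino acid uptake and synthesis, 0 rose and 3 fell: Pycr1 of proline synthesis (−0.61), the glycine transporter Slc6a9 (−0.53) and the neutral amino acid transporter Slc38a2 (−0.27). With equal total reads 0 of the 18 met the criteria. Of 16 other Atf4 and Ddit3 targets, 0 rose and 3 fell: the lipoprotein receptor Vldlr (−1.38), the stress protein Nupr1 (−0.93) and Tnfrsf10b, the death receptor DR5 and a Ddit3 target (−0.52). At an unadjusted limma p under 0.05, 1 of the amino acid genes and 0 of the other targets rose, with trend or with voom weights. Tnfrsf10b had means of 17.5 ± 2.47 in treated and 24.9 ± 0.87 in control hair cells (SD, n = 3; limma adjusted p = 0.00347). Of 12 genes for cytosolic tRNA synthetases, 1 rose, the threonyl enzyme Tars (0.37), which met the criteria in non-hair cells too (0.27). Median log2 differences were −0.13 for the amino acid genes, −0.35 for the other targets and 0.01 for the synthetases. Of 7 relatives of the described genes, 1 met the criteria, Trib2, which fell by 0.38. Markers of other cells were lower in the treated hair cells, as given above. With other cells' RNA subtracted, 8 of the 86 genes rose and 12 fell, and of the 46 targets 1 rose and 5 fell. The subtracted share came from mesenchyme, Schwann cell, endothelial and macrophage markers alone, so RNA of supporting cells was not estimated.

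The other arms of the unfolded protein response run through Ire1 and Atf6 and answer stress in the endoplasmic reticulum. Of 14 genes of these arms, 0 rose and 6 fell by the criteria in hair cells, 42.9% beside 14.8% of all tested genes (1 and 9 at an unadjusted limma p under 0.05, and 1 and 7 with voom weights), with a median log2 difference of −0.37. The count was 6 also with other cells' RNA subtracted, and 3 with equal total reads, where the share of all genes was 9.9%. The other 8 did not meet the criteria, and Atf6 (0.27), Atf6b (0.10) and Dnajb9 (0.09) had estimates above 0. The disulphide isomerase Pdia4 fell by 0.84, the chaperone Hsp90b1 by 0.64 and Sdf2l1, of the chaperone complexes in the lumen, by 0.61 (limma adjusted p = 0.0101, 0.00118 and 0.0226). Sdf2l1 did not meet the criteria with equal total reads. In non-hair cells 2 of the 14 rose (14.3%, beside 3.18% of all tested genes) and 0 fell.

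**Figure D4:**
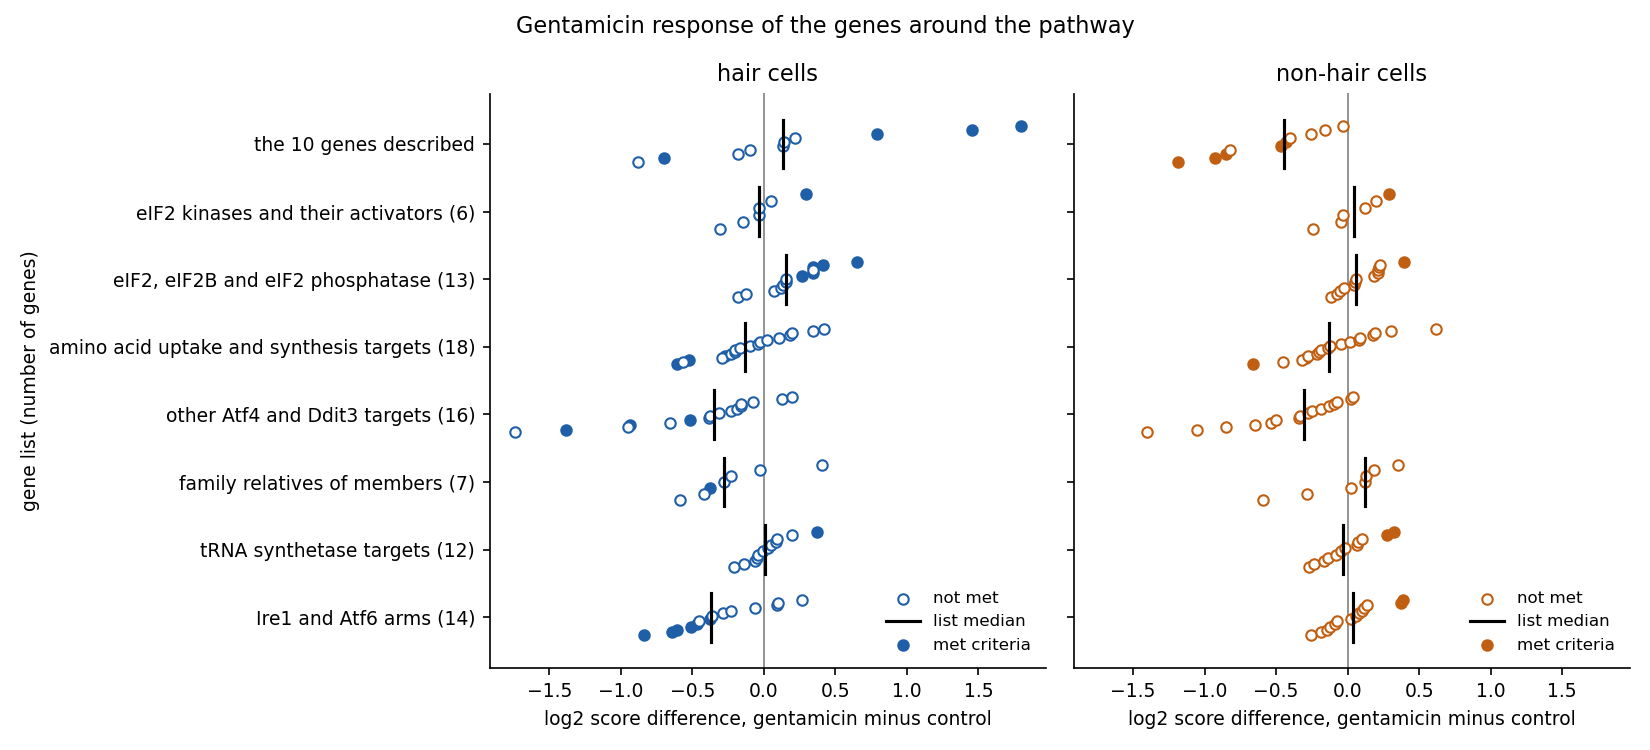
Log2 score difference between gentamicin and control (horizontal axis) of the 10 genes and of 86 others in 7 lists (vertical axis) in hair cells (left) and non-hair cells (right), with 1 point per gene, filled where the criteria were met, and a black line at each list's median. In hair cells the filled points of the amino acid targets, the other Atf4 and Ddit3 targets and the Ire1 and Atf6 arms lie left of 0. Those of eIF2 and eIF2B and of the tRNA synthetase targets lie right of it.

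Across the 12 replicates, with each population's mean taken off, the log2 scores of Atf4 and Ddit3 had a Pearson correlation of 0.95. Those of Atf4 and Ppp1r15a had 0.78, and those of Atf4 and Sesn2 −0.77. Asns and Chac1 correlated with each other at 0.91 but with Atf4 at −0.03 and 0.02. Among 13064 genes with a mean score of at least 5, the closest in pattern to Atf4 were Gnl3, a nucleolar GTP-binding protein (r = 0.99), the spermine oxidase Smox (0.99) and the cyclin Ccnl1 (0.99). Their log2 differences in hair cells were 1.09, 0.79 and 1.31, and in non-hair cells 0.01, 0.01 and −0.15. The closest to Ddit3 were Fbxo31, Gtpbp6 and Zfp622 (r = 0.99, 0.99 and 0.98), with differences of 0.46, 0.58 and 0.57 in hair cells and −0.13, −0.15 and −0.17 in non-hair cells. These correlations describe replicates that share their treatment and libraries. The treatment difference was kept in them, so the genes chosen follow the response of Atf4 or Ddit3 by selection.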

How the data were processed

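RNA of sorted cells was prepared by the authors with a polyA-based mRNA-seq kit, whose strand setting is not given in the sources used here, and sequenced as 50 bp single-end reads. According to the methods, reads were trimmed at a quality of 25 and aligned to mm10 with TopHat 2 in PartekFlow. The authors deposited a normalized read score for each of 23420 genes and each of 3 replicates per group. The methods speak of a division by gene length, but the deposited scores carry none: with the lowest value of 1 taken off and each replicate's step divided out, 83.3–84.5% of values of up to 20 reads came within 0.1 of whole reads. The share was too low for a count test. The replicates are called biological by the study, and p-values measure only the spread between them.

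Tests used limma 3.58.1 (R 4.3.3) on log2 scores, with 1 model of 4 group means, empirical Bayes moderation with a trend, and Benjamini-Hochberg adjustment over 16077 genes. Same-numbered control hair cell and control non-hair cell replicates deviated together from their group means (correlations 0.22, 0.32 and 0.20, different numbers −0.27 to −0.05), a hint of pairing from the data that no label states, and the replicate number as a block left that comparison at 7 genes. Differences between responses and between control populations were read at an adjusted p under 0.05. With 3 replicates against 3, an exact permutation test cannot go below 0.1. The script was tested on simulated data. Gene coordinates and exon lengths came from GENCODE M21, and overlaps in sequence of at least 95% identity over 100 bases from blastn 2.17.0. Tables used pandas 2.3.3, numpy 2.4.6 and scipy 1.17.1 in Python 3.11.15, and plots matplotlib 3.10.9.

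The 10 genes and the lists were chosen with earlier results of these data known, so no list is independent evidence of a direction. All 10 genes and 4 eIF2 kinases are named, and in each list the up to 3 genes with the largest rise and fall in hair cells that met the criteria and averaged 5 or more score units in the higher group, with the 3 genes most correlated with Atf4 and with Ddit3. Ppp1r15b, Mars, Tmem189, Mbtps1, Atf6, Atf6b and Dnajb9 were named after their values were seen. Alternatives were other scalings, offsets, read minimums and thresholds, voom weights, the replicate number as a block, 2 groups alone, each replicate left out, and subtraction of the marker-based share of other cells' RNA from hair cells.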

Additional observations from a re-analysis of the deposited data

Results flagged for a closer look

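The gentamicin response differed between hair cells and non-hair cells, by a test of the difference itself in limma, for 5 of the 10 genes. On the log2 scale the hair cell response was higher by 1.83 for Atf4, 1.88 for Ddit3, 1.197 for Ppp1r15a, 1.06 for Cebpb and 0.48 for Cebpg. Atf4 was higher in 3 of 3 treated hair cell replicates than the control mean and in 1 of 3 treated non-hair cell replicates. Ddit3, Cebpb and Cebpg were higher in 3 of 3 treated hair cell replicates and lower in 3 of 3 treated non-hair cell replicates, and Ppp1r15a was lower in 2 of the latter. Groups of 3 are too small for a test of single outlying replicates.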

How the results depend on the processing

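In hair cells 4 of the 10 genes were called, and 3–5 with each replicate left out. Of the genes in the 7 pathway lists 20 were called (14–18 with each replicate left out), and 7 at a fold change above 1.5. After subtraction of other cells' RNA the log2 difference of Chac1 reversed to 0.076, neither value passing the test, and 6 of the 10 genes were called. The differences between the populations (5 genes, 4–7 with each replicate left out) and between the controls (7 genes, 7 with each replicate left out) kept within 1.5 times of their counts in the alternatives run.

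The calls in non-hair cells depended on many of the choices. Of the 10 genes 5 were called, and 5 with median of ratios scaling, 4 with an offset of 0.1, 4 with voom weights, 2 with scaling to equal total reads, 3 with at least 1000 reads, 3 with no read minimum, 3 at a fold change above 1.5, 1 at an adjusted p under 0.05, 1 with the 2 groups fitted alone and 1–6 with each replicate left out. Of the pathway genes 8 were called, 8 also under both other scalings, the offset, both read minimums and voom weights, and 1 at a fold change above 1.5, 2 with the 2 groups alone, 1–9 with each replicate left out and 0 at an adjusted limma p under 0.05, beside 12 higher and 10 lower at an unadjusted p under 0.05 (11 and 10 with voom weights). The log2 difference of Atf4 in non-hair cells turned to 0.03 without control replicate 2 and 0.038 without treated replicate 2. That of Trib3 between the populations was −0.12 to 0.62 with each replicate left out, and negative without that treated replicate. The cause was not tested.

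Between control and treated groups, replicates with the same number did not deviate together in every pair: correlations of their deviations from group means were 0.04, 0.05 and 0.04 between the hair cell groups and 0.21, −0.23 and 0.68 between the non-hair cell groups. Between treated hair cells and treated non-hair cells they were 0.38, −0.04 and −0.02. With the replicate number as a block 3 of the 10 genes were called in non-hair cells, and the counts in the other comparisons of the 10 genes were 4, 5 and 7. Other scalings shifted the median over all genes by over 0.1 in 1 comparison, between the controls (0.11, median of ratios).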
